A study of Homo sapiens with 24 samples.

Results

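The glucocorticoid receptor gene NR3C1 and 8 genes that respond to the receptor in many tissues were followed through every library in which they had a row. The 8 targets were PDK4, TSC22D3, SGK1, FKBP5, KLF9, IGFBP1, CAVIN2 and ANGPTL4. They were found by gene symbol and make up 9 of the 18154 named genes in the series. Ribosomal RNA depleted RNA-seq was run on wild type BT549 cells, an established line of human triple negative breast cancer, grown with 10% fetal bovine serum, in 24 libraries that form 8 groups of 3. In the inhibitor experiment cells received vehicle (VEH), an agent labelled DEX, KJ-PYR-9, or KJ-PYR-9 + DEX. KJ-PYR-9 is a small molecule inhibitor of MYC, dissolved in DMSO and given at 40 µM for 3 h. DEX is a usual short name of dexamethasone, a synthetic agonist of the receptor, but the labels give neither its full name nor its dose or time. In the knockdown experiment a pool of siRNAs against MYC acted for 72 h (siMYC), beside a control (siCtl). In the MB-3 experiment a second set of vehicle libraries (VEH2) stood beside MB-3, an inhibitor of the acetyltransferase encoded by KAT2A, at 100 µM for 3 h. One title in that group, replicate 1, says MED3, but the treatment is given as MB3, and the library was kept in the MB-3 group. Serum can itself contain glucocorticoids, so VEH is a baseline in serum and not a hormone-free state.

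The glucocorticoid receptor is a nuclear receptor that waits in the cytoplasm in a complex with the chaperone HSP90. When it binds hormone it moves to the nucleus, where it binds DNA at palindromic response elements and raises genes such as TSC22D3, FKBP5 and PER1. It also lowers many inflammatory genes, in part by acting on the factors AP-1 and NF-kB. FKBP5 encodes a co-chaperone that reduces the receptor's affinity for hormone, which closes a feedback loop.

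The response element was searched in the promoters of these genes, because it is the sequence through which the receptor binds DNA directly. RefSeq promoter windows on GRCh38.p14, each of 250 bases before to 50 bases after a start site, covered 8 of the genes with 20 windows. The full palindromic glucocorticoid response element, which is the hexamer AGAACA, 3 bases of any kind and the hexamer's reverse complement, was in 0 of those 20 windows and in 1 of 35116 windows of all genes (0.00285%). A looser form with some of its bases left free, chosen after the first result was seen, was in 0 of the 20 and in 0.39% of all windows. The hexamer AGAACA alone, on either strand and including any copy inside the longer motifs, was in 3 of the 20 windows and in 14.8% of all windows. The 3 windows belong to PDK4, FKBP5 and SGK1, and they are shown because they are the only ones of the 20 with a hexamer. Capitals mark the hexamer, which reads TGTTCT where it lies on the other strand. The PDK4 stretch is chr7:95596517-95596766, minus strand, upstream of the start site. The FKBP5 stretch is chr6:35728554-35728703, minus strand, and its hexamer begins at the first base of the transcript. The SGK1 stretch is chr6:134177832-134177981, minus strand, at a start site inside the gene, and its hexamer lies just after the start. A match is a description of the letters only.
PDK4: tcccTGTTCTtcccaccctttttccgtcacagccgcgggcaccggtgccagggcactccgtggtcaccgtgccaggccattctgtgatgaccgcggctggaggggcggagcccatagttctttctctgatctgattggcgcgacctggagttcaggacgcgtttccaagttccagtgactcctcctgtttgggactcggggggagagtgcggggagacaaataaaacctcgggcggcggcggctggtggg
FKBP5: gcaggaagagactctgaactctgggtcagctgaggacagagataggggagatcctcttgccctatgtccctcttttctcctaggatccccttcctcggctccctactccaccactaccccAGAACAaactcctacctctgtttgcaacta
SGK1: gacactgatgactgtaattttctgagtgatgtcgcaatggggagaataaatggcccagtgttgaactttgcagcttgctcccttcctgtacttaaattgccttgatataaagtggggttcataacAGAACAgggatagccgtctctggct

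In RefSeq on GRCh38 the genes lie at NR3C1 chr5:143277931-143435512, PDK4 chr7:95583499-95596516, TSC22D3 chrX:107713221-107775988, SGK1 chr6:134169256-134318112, FKBP5 chr6:35573590-35728583, KLF9 chr9:70384604-70414657, IGFBP1 chr7:45888488-45893660, CAVIN2 chr2:191834310-191847088 and ANGPTL4 chr19:8364155-8374370. IGFBP1 and ANGPTL4 are on the plus strand and the other genes on the minus strand. An annotated gene on the opposite strand overlaps 7.22% of the exon bases of CAVIN2, 1.49% of those of TSC22D3 and 0.0403% of those of ANGPTL4. Reads from such overlaps could be shared, since the strand setting of the counting is not given in the sources used here.

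Values are normalized read counts as deposited, and depth differed between groups. The reads recovered from the values came to 7.846 to 30.76 M in VEH, 5.582 to 14.53 M in DEX, 21.17 to 26.92 M in KJ-PYR-9 and 6.886 to 12.07 M in KJ-PYR-9 + DEX. Library DEX 1 stood apart, with 26.04% of its signal in features that carry no gene symbol, against 1.618% to 1.861% in VEH. The mesenchymal marker VIM was at 9614 to 11229 normalized counts in VEH, with KRT8 at 11.4 to 14.1 and the leukocyte gene PTPRC at 5.72 to 7.19. GATA3, a luminal breast marker, was present at 281 to 495. MYC itself was at 2313, 2269 and 2138 in siCtl and at 1655, 1789 and 1710 in siMYC. In the inhibitor experiment it was at 1378 to 2490 in VEH, 16916 to 19573 in DEX, 8283 to 11004 in KJ-PYR-9 and 3666 to 4510 in KJ-PYR-9 + DEX. The labels call the replicates biological but name no separate cultures, so each p measures the spread between these libraries only.

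Compared per kilobase of annotated exon, NR3C1 had the most abundant transcript of the 9 in VEH, at 311 ± 45.0 normalized counts per kilobase (SD, n = 3). ANGPTL4 followed at 99.6 ± 9.35 and SGK1 at 73.8 ± 23.6, a pair that did not differ beyond their spread. KLF9 was at 39.8 ± 6.80. The rest were scarce, with TSC22D3 at 5.88 ± 2.89 and CAVIN2 at 4.22 ± 2.22, which again overlapped, IGFBP1 at 2.01 ± 0.103, PDK4 at 1.62 ± 0.881 and FKBP5 at 0.896 ± 0.430. After DEX, SGK1 was the highest of the 9, at 1518 ± 298 per kilobase, ahead of NR3C1 at 441 ± 86.3. KLF9 stood at 387 ± 71.8, PDK4 at 294 ± 92.6, ANGPTL4 at 193 ± 46.3 and TSC22D3 at 131 ± 53.6, and each neighbouring pair from NR3C1 down to TSC22D3 overlapped in mean ± SD. CAVIN2 at 42.4 ± 8.78 lay below them, FKBP5 was at 3.92 ± 0.883, and IGFBP1 was at 2.03 ± 3.51.

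DEX raised 7 of the 8 members that could be tested, all of them targets, where 17.5% of the 13616 genes tested were called, 9.50% higher and 8.02% lower. NR3C1 did not pass and IGFBP1 was below the minimum mean of 10. Of the targets called, FKBP5 met that minimum only through the groups with DEX. With KJ-PYR-9 + DEX against VEH the same 7 targets were called higher and NR3C1 was called lower, against 36.6% of all genes called, 18.4% higher and 18.2% lower. KJ-PYR-9 alone raised 4 members, PDK4, SGK1, KLF9 and ANGPTL4, against 42.9% of all genes called, 25.4% higher and 17.5% lower. The count of 4 of 8 is near the share called in either direction. All 4 were higher, beside 25.4% of all genes, and no result about the members as a set is read from that count. TSC22D3, FKBP5 and CAVIN2 did not pass with KJ-PYR-9 alone. When DEX was added to KJ-PYR-9, 6 targets rose and SGK1 fell, against 7.55% of all genes called, 3.17% higher and 4.38% lower. DEX set directly against KJ-PYR-9 gave 7 members higher, against 68.9% of all genes called, 32.8% higher and 36.0% lower, with ANGPTL4 not passing. These comparisons share libraries, so their counts are not independent of each other. The members were also chosen with earlier results of these data known, so the counts only describe them beside the share of all genes. The summed level of the 6 epithelial and luminal markers with a row was 366 to 555 in VEH, 256 to 390 in DEX, 518 to 553 in KJ-PYR-9 and 410 to 497 with both agents. Most of this sum was GATA3, with a mean of 364 in VEH and 239 in DEX. Taken singly, 2 of the 6 were higher without overlap and 0 lower with DEX. The counts were 2 and 0 with KJ-PYR-9, and 1 and 1 with both. The summed level of the 3 leukocyte and endothelial markers with a row was 8.78 to 10.9 in VEH, 15.5 to 20.9 in DEX, 7.29 to 13.8 in KJ-PYR-9 and 5.90 to 12.7 with both. Of these 3, only PTPRC was higher without overlap with DEX. The sum of the 6 mesenchymal markers was higher with every treatment than in VEH, without overlap. Taken singly, 3 of these 6 mesenchymal markers were higher without overlap with DEX, 6 with KJ-PYR-9 and 2 with both. The part of these markers in the members' results was not tested.

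**Figure D1:**
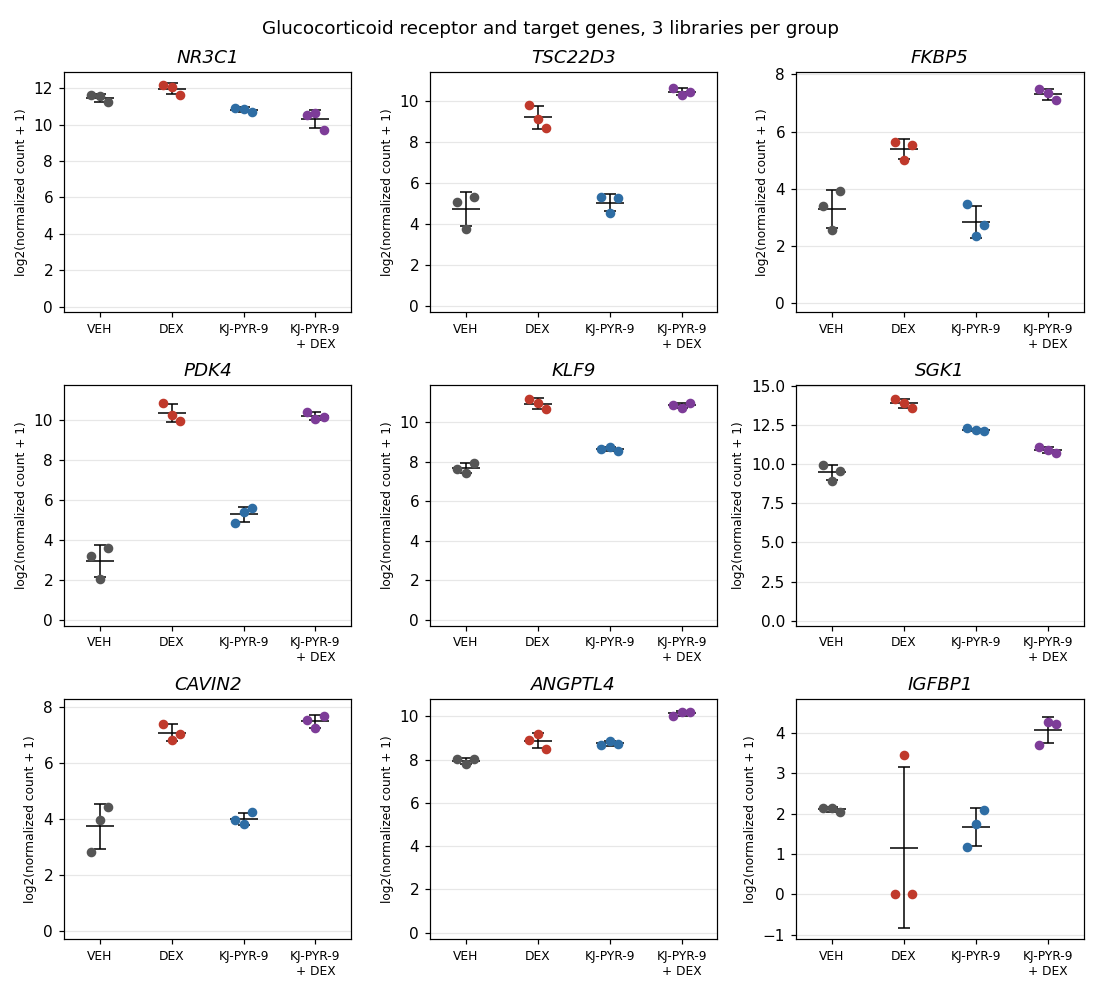
Level of each gene on the y axis as log2(normalized count + 1), for the 4 groups of the inhibitor experiment on the x axis. Points are libraries, with the group mean and SD as black lines; TSC22D3, FKBP5 and CAVIN2 lie higher in both groups with DEX than in VEH or KJ-PYR-9, while SGK1 is lower with both agents (1698 to 2210 normalized counts) than with either alone.

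NR3C1, the receptor itself, was expressed in all 12 libraries. Its levels in replicates 1, 2 and 3 were 3160, 3004 and 2380 in VEH and 4655, 4332 and 3151 in DEX. They were 1954, 1842 and 1653 in KJ-PYR-9 and 1494, 1598 and 845 in KJ-PYR-9 + DEX. The lowest DEX library touched the highest VEH library, whereas both groups with KJ-PYR-9 lay wholly below VEH. The receptor transcript was lower with KJ-PYR-9 + DEX than with VEH by a log2 difference of -1.16 (SE 0.24, adjusted p = 0.00901), and lower than with DEX by -1.66 (adjusted p = 0.000274).

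DEX against KJ-PYR-9 passed, at 1.14 (adjusted p = 0.00178), and 3 other contrasts did not. DEX against VEH gave 0.50 (adjusted p = 0.152), KJ-PYR-9 against VEH gave -0.64 (adjusted p = 0.0511), and KJ-PYR-9 + DEX against KJ-PYR-9 gave -0.52 (adjusted p = 0.261). Replicate numbers were taken to pair the libraries of this experiment. With the replicate number as a block in limma these 3 contrasts passed, at adjusted p = 0.0205, 0.00395 and 0.0366. The KJ-PYR-9 contrast also passed in edgeR (adjusted p = 0.0108) and in DESeq2 (adjusted p = 0.00496) on the recovered reads.

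TSC22D3, which encodes the anti-inflammatory protein GILZ, rose with DEX in the absence and in the presence of KJ-PYR-9. It was at 32.5, 12.6 and 39.1 in VEH and at 909, 552 and 413 in DEX. The values in KJ-PYR-9, 38.9, 22.6 and 37.3, lay within the range of VEH. With both agents it reached 1589, 1279 and 1395, above every library of the other 3 groups. DEX raised TSC22D3 by 4.49 on the log2 scale (SE 0.40, adjusted p = 4.98e-05), a 22.3-fold ratio of means, and by 5.42 on top of KJ-PYR-9 (adjusted p = 1.27e-05). KJ-PYR-9 alone gave 0.33 (adjusted p = 0.513). KJ-PYR-9 + DEX exceeded DEX by 1.26 (adjusted p = 0.0154), but without library DEX 3 the difference was 0.997 and did not pass (adjusted p = 0.0596).

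FKBP5, the feedback co-chaperone, had few reads in this cell line but separated the groups. It was at 9.46, 4.96 and 14.1 in VEH, from 9 to 25 reads per library, and at 10.0, 4.16 and 5.67 in KJ-PYR-9, from 7 to 16 reads. DEX libraries held 48.8, 31.0 and 44.9, and KJ-PYR-9 + DEX libraries held 177, 164 and 136. VEH and KJ-PYR-9 overlapped, DEX lay above both, and the combination lay above DEX. FKBP5 rose by 2.09 with DEX (SE 0.35, adjusted p = 0.00339) and by 4.45 when DEX was added to KJ-PYR-9 (adjusted p = 1.93e-05). Its means of 9.50 in VEH and 6.62 in KJ-PYR-9 were below the minimum of 10. It was therefore tested only because of its level in the groups with DEX. The combination exceeded DEX alone 3.82-fold, a log2 difference of 1.92 (adjusted p = 0.000742), while KJ-PYR-9 alone gave -0.44 (adjusted p = 0.317).

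CAVIN2, which encodes a coat protein of caveolae, followed DEX in the same way. It was at 6.05, 14.5 and 20.3 in VEH and at 14.4, 13.1 and 17.8 in KJ-PYR-9. In DEX it was at 168, 112 and 130, and in KJ-PYR-9 + DEX at 187, 150 and 204. The groups with DEX did not overlap those without it, and they overlapped each other. The rise with DEX was 3.36 (SE 0.34, adjusted p = 0.000134), a 10.0-fold ratio, and on top of KJ-PYR-9 it was 3.49 (adjusted p = 9.06e-05). The combination against DEX gave 0.40, with a 95% interval of -0.33 to 1.14 (adjusted p = 0.299).

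PDK4, a kinase that turns off pyruvate dehydrogenase and so spares glucose, had the largest fold change of the 9 genes. It went from 7.95, 3.05 and 10.9 in VEH to 1797, 1195 and 992 in DEX. KJ-PYR-9 alone held 27.6, 40.4 and 47.0, all above VEH and far below DEX. The combination held 1350, 1029 and 1112. PDK4 rose by 7.41 with DEX (SE 0.37, adjusted p = 1.40e-06), a 182-fold ratio of means. PDK4 rose by 2.35 with KJ-PYR-9 (adjusted p = 0.00162), a 5.24-fold ratio. Added to KJ-PYR-9, DEX raised it by 4.91 (adjusted p = 1.39e-05). The end level with both agents differed from DEX by -0.15, with a 95% interval of -0.96 to 0.65 (adjusted p = 0.719).

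KLF9, a zinc finger transcription factor, had the same order of groups at a higher level. VEH libraries were at 199, 174 and 244, and KJ-PYR-9 libraries at 398, 432 and 368. DEX libraries were at 2367, 2002 and 1625, and KJ-PYR-9 + DEX libraries at 1914, 1710 and 2028. Only the last 2 groups overlapped. KLF9 rose by 3.27 with DEX (SE 0.17, adjusted p = 1.62e-06), 9.71-fold, and by 0.96 with KJ-PYR-9 (adjusted p = 0.00253), 1.94-fold. The combination differed from DEX by -0.07, with a 95% interval of -0.44 to 0.30 (adjusted p = 0.718).

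SGK1, a kinase that controls ion channels and survival signals, departed from the other tested targets among the 9 genes. It was at 962, 491 and 758 in VEH, 17971, 15486 and 12035 in DEX, and 4926, 4552 and 4335 in KJ-PYR-9. With both agents it was at 2210, 1908 and 1698. The 4 groups did not overlap, and the combination lay above VEH but below each agent alone. SGK1 rose 20.6-fold with DEX, by 4.40 on the log2 scale (SE 0.23, adjusted p = 1.69e-06), and 6.25-fold with KJ-PYR-9, by 2.69 (adjusted p = 7.21e-05). The combination was 0.128 of the DEX level, a log2 difference of -2.96 (adjusted p = 1.84e-05), and 0.421 of the KJ-PYR-9 level, a difference of -1.25 (adjusted p = 0.00684). Against VEH the combination was still higher by 1.44 (adjusted p = 0.00313).

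ANGPTL4, a secreted inhibitor of lipoprotein lipase that also answers to hypoxia and to PPAR receptors, changed little with each agent and more with both. It was at 260, 220 and 261 in VEH, 485, 591 and 361 in DEX, and 403, 470 and 421 in KJ-PYR-9. The combination held 1039, 1178 and 1195. DEX and KJ-PYR-9 overlapped each other and lay above VEH, and the combination lay above all. ANGPTL4 rose by 0.93 with DEX (SE 0.17, adjusted p = 0.00661) and by 0.80 with KJ-PYR-9 (adjusted p = 0.00539). DEX differed from KJ-PYR-9 by 0.13 (adjusted p = 0.529). The combination exceeded VEH 4.61-fold, by 2.20 (adjusted p = 3.48e-05), and DEX 2.37-fold, by 1.27 (adjusted p = 0.000217).

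IGFBP1, a secreted protein that binds insulin-like growth factors, was close to the limit of detection. VEH held 9, 9 and 2 reads, or 3.41, 3.43 and 3.13 normalized counts. DEX held 0, 11 and 0 reads, where 3 reads would be worth 9.15 normalized counts in DEX 1 and 3.13 in DEX 3. KJ-PYR-9 held 2, 4 and 4 reads, and KJ-PYR-9 + DEX 6, 16 and 9, or 12.04, 18.4 and 17.7 normalized counts. The combination was the highest group. With no minimum on the mean, it was higher than DEX by 2.92 (adjusted p = 0.00888) and its difference from VEH, 1.96, did not pass (adjusted p = 0.0856).

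**Figure D2:**
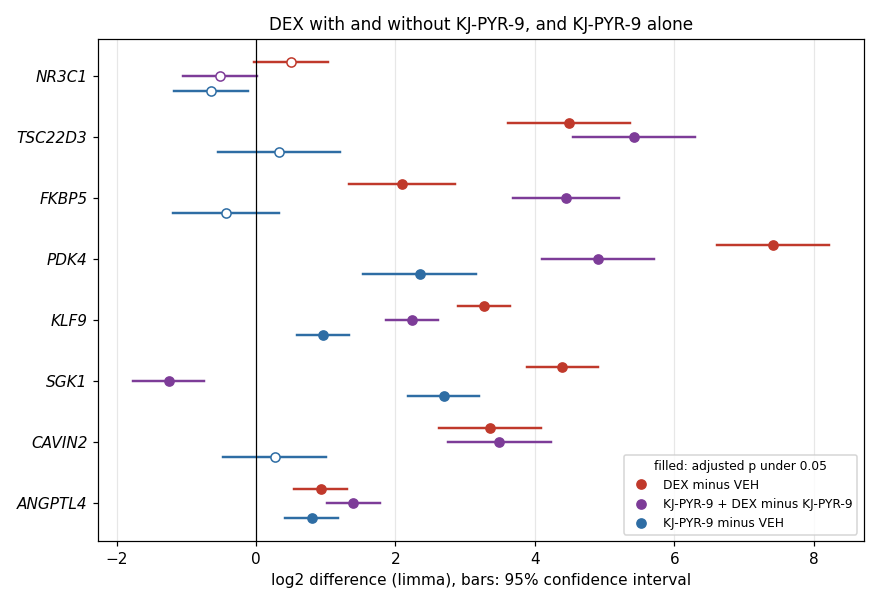
Log2 differences (x axis) with their 95% intervals for the 8 tested genes (y axis), for DEX against VEH, DEX added to KJ-PYR-9, and KJ-PYR-9 against VEH. Filled points passed an adjusted p of 0.05. SGK1 is the only gene whose DEX effect passes with opposite signs, at 4.40 without and -1.25 with KJ-PYR-9. FKBP5 met the minimum mean only through the groups with DEX.

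The interaction asks whether the effect of DEX differed in the presence of KJ-PYR-9. It was computed as the DEX effect with KJ-PYR-9 minus the DEX effect without it. It passed for 4 of 8 members, 1 higher and 3 lower, against 16.8% of all genes called, 7.15% higher and 9.62% lower. SGK1 gave -5.65 (SE 0.33, adjusted p = 2.67e-06), PDK4 -2.50 (SE 0.52, adjusted p = 0.00813) and KLF9 -1.04 (SE 0.24, adjusted p = 0.0141). FKBP5 went the other way, at 2.36 (SE 0.49, adjusted p = 0.00835), but met the minimum mean only through the groups with DEX. For PDK4 and KLF9 the smaller step started from a raised KJ-PYR-9 level and ended at a level not told apart from DEX. For TSC22D3 (0.93, adjusted p = 0.285), ANGPTL4 (0.47, adjusted p = 0.216) and CAVIN2 (0.13, adjusted p = 0.877) no difference passed. NR3C1 gave -1.02 (adjusted p = 0.0649) and passed with the replicate block (adjusted p = 0.00557).

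The combination against DEX alone gave 3 members higher, TSC22D3, FKBP5 and ANGPTL4, and 2 lower, NR3C1 and SGK1. That contrast called 33.6% of all genes higher and 35.1% lower, so 5 of 8 is near the background of 68.7%.

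A further list held 30 other genes raised by the receptor in many tissues, of which 25 were tested. With DEX 20 of them rose, with a median of 1.74 against 0.02 for all genes. With KJ-PYR-9 + DEX 18 rose and 1 fell (median 1.37), and with KJ-PYR-9 alone 16 rose and 1 fell (median 0.95). ZBTB16, a transcription factor used as a marker of receptor activity, went from a mean of 0.773 in VEH, where 1 read is worth 0.378 to 1.56, to 21.8 with DEX and 162 with both agents. Its differences of 3.74 and 6.60 passed, but their size depends on the pseudocount of 1. SLC19A2, a thiamine transporter, rose by 4.27 with DEX, from 76.6 to 1529, and by 3.04 with the combination. The circadian gene PER1 rose by 2.59 with the combination and by 1.84 with KJ-PYR-9 alone. DUSP1, a phosphatase that is both a receptor target and an early stress gene, rose by 4.25 with DEX and by 3.81 with KJ-PYR-9.

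DEX added to KJ-PYR-9 raised 9 of these 25 genes and lowered 3, with a median of 0.29 against -0.09 for all genes. ZBTB16 rose by 6.09, SLC19A2 by 2.45, KLF15, a regulator of amino acid metabolism, by 2.88, and GLUL, glutamine synthetase, by 1.28. KLF15 was a low gene, with a mean of 3.24 in KJ-PYR-9 and 29.5 with both agents. The interaction passed as lower for 16 of the 25 and as higher for 2, against 9.62% and 7.15% of all genes. Its median in the list was -1.27, against -0.11 for all genes. DUSP1 gave -5.22 and RGS2 -3.42, beside -5.65 for SGK1, so a lower interaction was not particular to SGK1.

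Immediate early genes, which rise within an hour of many stimuli, also rose with each agent alone, and most were lower with both agents than with KJ-PYR-9. Of 30 tested, 26 rose with DEX (median 2.24) and 29 with KJ-PYR-9 (median 2.48). With both agents 11 rose and 4 fell against VEH (median 0.59). When DEX was added to KJ-PYR-9, 24 of the 30 fell, with a median of -2.07. FOS rose by 5.87 with DEX, from 107 to 6008, and by 7.40 with KJ-PYR-9, then fell by 6.26 when DEX was added to KJ-PYR-9. ATF3 rose by 3.44 with DEX and by 3.84 with KJ-PYR-9, and fell by 4.79 with DEX on top of KJ-PYR-9. The interaction passed as lower for 28 of the 30. The part of this wider change in the SGK1 result was not tested.

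Of 13 tested inflammatory genes that the receptor is known to lower, 5 rose with DEX, among them IL6 by 5.46, from 114 to 4268, CXCL2 by 4.63 and CXCL8 by 3.42. KJ-PYR-9 alone raised 7, with IL6 up by 4.40. When DEX was added to KJ-PYR-9, 8 of the 13 fell and the median was -1.19, with IL6 down by a log2 difference of -4.55, CXCL8 by -4.09 and CXCL2 by -3.47. Against VEH the combination lowered 4, including CXCL8 (-2.22), CCL2 (-1.62) and IRF1 (-1.10), and raised 1, MMP9 (1.38).

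Of 19 tested chaperones and cofactors of the receptor, DEX raised 1, the coactivator NCOA2 (0.42). KJ-PYR-9 and the combination each raised 4 and lowered 3. Over all genes, 17.5% were called with DEX, 42.9% with KJ-PYR-9 and 36.6% with the combination. The chaperone and cofactor counts with KJ-PYR-9 and with the combination are near that background. Lists of other regulators that share members' pathways were given for comparison. PPAR targets had 1 of 9 lower with DEX, 3 higher and 1 lower with KJ-PYR-9, and 1 higher with the combination. Hypoxia targets had 4 of 11 higher with DEX, 5 higher and 3 lower with KJ-PYR-9, and 4 higher and 1 lower with the combination. FOXO targets had 7 of 12 higher with DEX, including TXNIP (2.45) and GADD45A (2.05), 6 higher and 4 lower with KJ-PYR-9, and 4 higher and 2 lower with the combination. The PPAR count with KJ-PYR-9 is also near its background of 42.9%. The hypoxia and FOXO counts with the combination stand beside 36.6% of all genes.

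**Figure D3:**
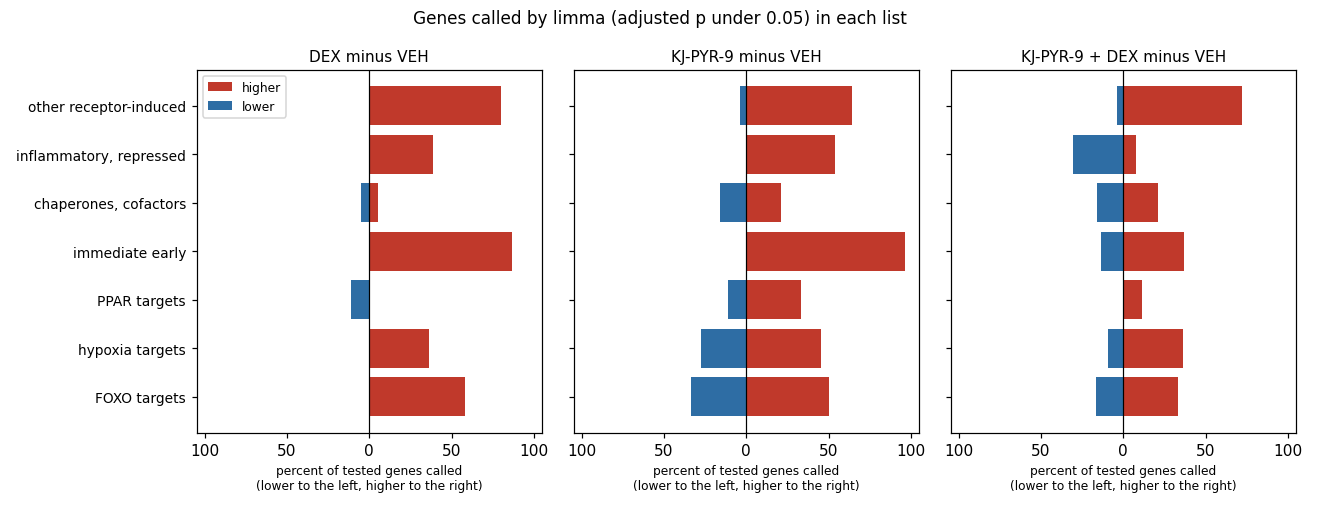
Percent of the tested genes of each list (y axis) called higher (red, to the right) or lower (blue, to the left) against VEH for DEX, KJ-PYR-9 and KJ-PYR-9 + DEX. Immediate early genes are mostly higher with each agent alone (26 and 29 of 30) and less so with both (11 of 30), while the other receptor-induced genes are higher in 20, 16 and 18 of 25. Of all genes tested, 9.50%, 25.4% and 18.4% were higher and 8.02%, 17.5% and 18.2% lower.

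MYC knockdown for 72 h raised 3 of the 8 members tested, SGK1, CAVIN2 and IGFBP1, where 16.1% of the 14788 genes were called, 11.4% higher and 4.78% lower. Of these members, IGFBP1 met the minimum mean of 10 only through its siMYC libraries. With trimmed mean rescaling the calls over all genes were 1365 higher and 944 lower, in place of 1679 and 707. Cell type markers moved with the knockdown. Of the 8 epithelial and luminal markers 4 had a row, and 3 of these were higher in siMYC without overlap, CDH1 at 61.0 to 110 in siCtl and 269 to 522 in siMYC, KRT8 at 14.8 to 20.7 and 35.8 to 118, and KRT18 at 11.7 to 15.8 and 27.7 to 61.2. The sum of the 4 was 717 to 834 in siCtl and 954 to 1268 in siMYC. Of the 6 leukocyte and endothelial markers 2 had a row, with a sum of 31.6 to 46.9 in siCtl and 56.5 to 69.5 in siMYC, and CD68 was higher without overlap, at 7.63 to 20.1 and 23.8 to 48.2. Of the 6 mesenchymal markers 4 were higher without overlap. No marker with a row was at 0, and the part of these markers in the members' results was not tested.

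CAVIN2 was at 31.6, 20.7 and 25.9 in siCtl and at 74.3, 71.6 and 56.5 in siMYC, groups that did not overlap. It rose by 1.35 (SE 0.19, adjusted p = 0.0122), 2.59-fold, and passed whichever of the 6 libraries was left out.

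SGK1 was at 1011, 1114 and 1158 in siCtl and at 1636, 1863 and 1884 in siMYC. The groups did not overlap, and the rise was 0.71 (SE 0.12, adjusted p = 0.0181). It no longer passed without siCtl 1, siCtl 2, siCtl 3 or siMYC 3, with an adjusted p of 0.0600 to 0.0763. IGFBP1 was at 5.93, 2.18 and 3.35 in siCtl and at 10.9, 13.1 and 27.8 in siMYC. It rose by 1.89 (SE 0.41, adjusted p = 0.0295), and did not pass without siCtl 2 (adjusted p = 0.0859), siCtl 3 (adjusted p = 0.0967) or siMYC 2 (adjusted p = 0.0549). The mean of IGFBP1 was 3.82 in siCtl and 17.3 in siMYC, so it met the minimum mean of 10 only through siMYC. Without siMYC 3 it fell below that minimum and was not tested.

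TSC22D3, FKBP5 and KLF9 did not pass after knockdown. TSC22D3 was at 84.0, 66.5 and 53.5 in siCtl and at 58.4, 39.3 and 57.5 in siMYC (-0.39, adjusted p = 0.257). FKBP5 was at 27.7, 36.0 and 22.6 in siCtl and at 37.6, 16.6 and 18.5 in siMYC (-0.30, adjusted p = 0.534). KLF9 ranged from 158 to 217 in siCtl and from 135 to 242 in siMYC (-0.03, adjusted p = 0.936). The siCtl and siMYC libraries overlapped for all of these genes.

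NR3C1 was at 6724, 6657 and 7623 in siCtl and at 9054, 6111 and 6920 in siMYC, a difference of 0.06 (adjusted p = 0.839). ANGPTL4 was at 371, 329 and 227 in siCtl and at 381, 480 and 616 in siMYC, groups that did not overlap, but its difference of 0.67 did not pass (adjusted p = 0.104). PDK4 was at 4.94, 23.98 and 5.02 in siCtl and at 13.9, 3.49 and 1.85 in siMYC, below the minimum mean.

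Of the 23 tested genes in the list of other receptor-induced genes, 9 rose and 1 fell after knockdown, with a median of 0.61 against 0.05 for all genes. The metallothionein MT2A rose by 1.43 and TNFAIP3, an inhibitor of NF-kB, by 1.41. Inflammatory genes rose in 6 of 15, including IRF1 by 1.46, and immediate early genes in 8 of 30, including FOSL1 by 1.10.

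MB-3 left the 4 members with a row in that experiment without a call in limma, where 0.0597% of 10048 genes were called, 0.0299% higher and 0.0299% lower. At an unadjusted p under 0.05, 1 of the 4 would pass, KLF9. The share of all genes at that unadjusted threshold, or without overlap, is not given. No effect of MB-3 on KLF9 is therefore read from either. KLF9 was at 344, 358 and 357 in VEH2 and at 236, 306 and 309 with MB-3, groups that did not overlap, with a difference of -0.33 (SE 0.11, adjusted p = 0.317). NR3C1 was at 3132, 3248 and 3534 in VEH2 and at 3871, 3461 and 3654 with MB-3 (0.15, adjusted p = 0.435). SGK1 was at 902, 960 and 1075 in VEH2 and at 909, 1043 and 935 with MB-3 (-0.02, adjusted p = 0.920). ANGPTL4 was at 274, 326 and 314 in VEH2 and at 198, 316 and 251 with MB-3 (-0.27, adjusted p = 0.462). The last 3 genes overlapped between the groups.

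**Figure D4:**
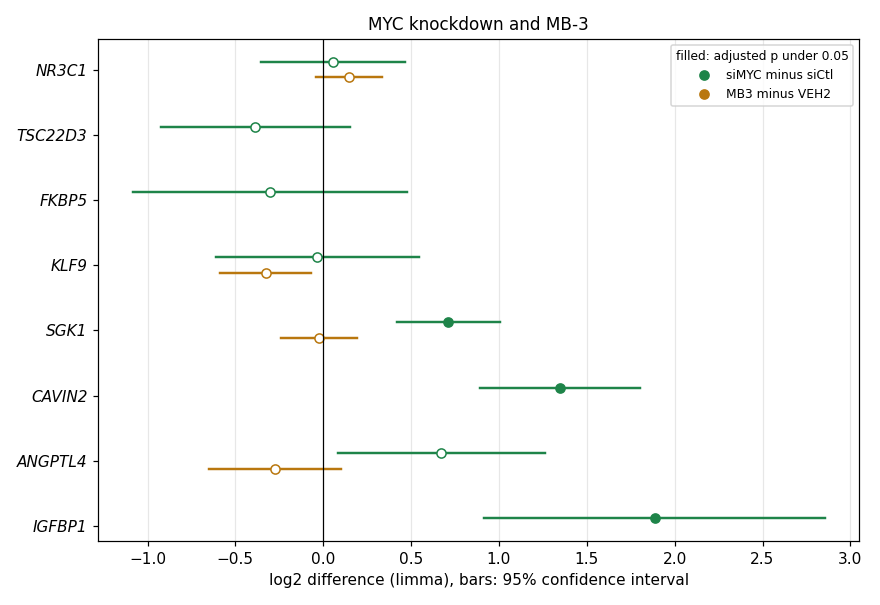
Log2 differences (x axis) with their 95% intervals after MYC knockdown (green) and MB-3 (orange) for the genes tested in each (y axis). Filled points passed an adjusted p of 0.05: SGK1, CAVIN2 and IGFBP1 after knockdown, at 0.71, 1.35 and 1.89. IGFBP1 met the minimum mean only through its siMYC libraries.

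Across the 12 libraries of the inhibitor experiment, the members were compared by the Pearson correlation of log2(value + 1). This is a description, since the libraries share 4 treatments and differ in depth. PDK4 and KLF9 had r = 0.996 with each other, and TSC22D3 and FKBP5 had r = 0.959. These pairs were not separate, since TSC22D3 had r = 0.954 with PDK4, 0.955 with KLF9 and 0.962 with CAVIN2. SGK1 ranged from r = -0.415 with IGFBP1 to 0.634 with PDK4, with 0.161 for FKBP5, 0.402 for TSC22D3 and 0.623 for KLF9. NR3C1 ranged from -0.589 with ANGPTL4 to 0.378 with SGK1. Among 11055 other genes with a mean of at least 50, those most like PDK4 were BCL2L11 (r = 0.978), PXYLP1 (r = 0.975) and KLF7 (r = 0.973). The genes most like CAVIN2 were TXNIP (r = 0.985), PAG1 (r = 0.985) and AKAP12 (r = 0.968). For TSC22D3 they were DCUN1D3 (r = 0.983), PXYLP1 (r = 0.982) and TXNIP (r = 0.971).

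SGK1 was closest to KLF6 (r = 0.983), an early response transcription factor that averaged 3351 in VEH, 25153 in DEX, 10252 in KJ-PYR-9 and 7711 with both agents. It was next closest to RGS2 (r = 0.979) and TGIF1 (r = 0.978). NR3C1 was most like SNX16 (r = 0.993), MORC3 (r = 0.991) and TOR1AIP1 (r = 0.989), and ANGPTL4 most like SIX2 (r = 0.963), IRX3 (r = 0.962) and FZD7 (r = 0.956).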

How the data were processed

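Transcripts were measured in 24 RNA-seq libraries of BT549 cells. The deposited signal of each library lists genes with their normalized counts, a coverage measure. Per the submitters' processing notes, bcl2fastq, SAMtools, featureCounts, DESeq2 and GRCh38 (hg38) were used. The aligner, annotation, strand setting and versions are not given in the sources used here. In the inhibitor experiment 100% of values gave whole reads within 0.0001 when divided by a library factor. Of its 24290 features, 6462 had no symbol (1.618% to 26.04% of the signal) and took no part in the tests. Repeated symbols, 32 there and 21 in the knockdown, were summed. The MB-3 tables held 10048 genes and 4 of the 9 members. No libraries were identical. Since normalization was separate in the 3 experiments, none of their values were compared across experiments.

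Genes with a mean of at least 10 were tested on log2(value + 1), a scale that understates changes of low genes, with limma 3.58.1 (R 4.3.3), by two-sided tests at 0.05 after Benjamini-Hochberg adjustment of p over all genes tested. The 12 inhibitor libraries shared 1 fit. The script was tested on simulated data. Fold ratios are ratios of group means. Alternatives were edgeR 4.0.16 and DESeq2 1.42.0 on recovered reads, trimmed mean rescaling, pseudocounts of 0.5 and 5, other filters, trended variance, a replicate block, fits of 2 groups, and leaving out each library.

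Residuals of libraries that share a replicate number correlated at 0.13 to 0.524 over 18 pairs in the inhibitor experiment and at 0.208 to 0.389 over 3 pairs in the MB-3 experiment. The numbers were therefore taken to pair those libraries, but not those of the knockdown. Libraries with different numbers were not correlated for comparison, so the pairing is an assumption. The members and lists were chosen with earlier results of these data known. Named were all 9 members, up to 4 genes with the smallest p in each list, and the 3 genes most like a member. The results of some named genes are not reported here. Promoters and gene positions come from RefSeq, exon lengths from GENCODE.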

Additional observations from a re-analysis of the deposited data

Results flagged for a closer look

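The effect of DEX differed with KJ-PYR-9 present for 4 of the 8 members tested, by the interaction test in limma. SGK1 differed by -5.65 on the log2 scale, PDK4 by -2.50 and KLF9 by -1.04, so their response to DEX was smaller or opposite beside KJ-PYR-9. FKBP5 differed by 2.36, a larger response, but met the minimum mean only through the groups with DEX. In library DEX 1, 26.04% of the signal lay in features with no gene symbol, which no comparison uses and which is above the 1.618% to 1.861% of VEH.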

How the results depend on the processing

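In the inhibitor experiment, the number of members called without 1 library in turn was 7 to 7 for DEX against VEH, 8 to 8 for KJ-PYR-9 + DEX against VEH, 4 to 5 for KJ-PYR-9 against VEH, 7 to 7 for DEX added to KJ-PYR-9, 4 to 5 for KJ-PYR-9 + DEX against DEX, 7 to 7 for DEX against KJ-PYR-9 and 4 to 5 for the interaction. The knockdown gave 1 to 3, with 1 without siCtl 2, siCtl 3 or siMYC 3. With a minimum mean of 50 it gave 1, SGK1, because CAVIN2 and IGFBP1 were below that minimum and not tested. With the replicate block it gave 1, CAVIN2, while SGK1 (adjusted p = 0.0735) and IGFBP1 (adjusted p = 0.0620) did not pass. Same-numbered residuals of the knockdown correlated at -0.346 to -0.02. In the experiments taken as paired the block changed no call of a member but those of NR3C1 given above.

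Of 1087 values under an alternative, 1048 kept direction and call, 10 lost the call, 16 gained it and 13 changed sign, all 13 of differences that did not pass. With 1 library left out, the values that changed sign, with the far end of the range over libraries left out, were TSC22D3 -0.15 (without VEH 2; highest 0.63) and CAVIN2 -0.185 (without VEH 1; highest 0.61) for KJ-PYR-9, PDK4 0.087 (lowest -0.34) and KLF9 0.059 (lowest -0.21) for the combination against DEX (without DEX 1), ANGPTL4 -0.040 for DEX against KJ-PYR-9 (without DEX 2, highest 0.31), and CAVIN2 -0.21 for the interaction (without VEH 3, highest 0.59). In the knockdown they were NR3C1 -0.10 (without siMYC 1, highest 0.18), and KLF9 0.015, 0.057 and 0.20 (without siCtl 1, siCtl 2 and siMYC 2, lowest -0.22). With MB-3 they were SGK1 0.046 (without VEH2 3) and 0.017 (without MB3 1, lowest -0.083). Under trimmed mean rescaling NR3C1 in the knockdown was -0.015. The causes were not tested.

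Counts over all genes moved more. The genes called were 2386 for DEX against VEH, with 865 without DEX 1 and 5925 with the replicate block. They were 4979 for the combination against VEH (1376 without VEH 1, 7548 with the block), 5835 for KJ-PYR-9 (3393 without KJ-PYR-9 3), 1028 for DEX added to KJ-PYR-9 (624 without KJ-PYR-9 2, 2018 with the block), 2283 for the interaction (1469 without KJ-PYR-9 1, 4399 with the block), 2386 in the knockdown (432 without siCtl 3, 3983 without siMYC 1) and 6 with MB-3 (1 without VEH2 1, 14 with the block). On recovered reads edgeR called 1572 genes higher and 1346 lower for DEX, and DESeq2 2047 and 1690. Count tests of the knockdown and MB-3 experiments were not run, because whole reads could not be recovered from all of their libraries. Depth limits IGFBP1 and FKBP5, which rest on few reads. It also limits the VEH levels of PDK4 (21, 8 and 7 reads) and CAVIN2 (16, 38 and 13 reads).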
